A study of Mus musculus with 12 samples.

Results

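The killer lectin-like receptor genes *Klrd1*, *Klrk1*, *Klrc1*, *Klrc2*, *Klre1* and *Klrg1* were followed through 12 RNA-seq libraries of cultured mouse CD8 T cells, as 6 genes chosen by name out of 46603 gene identifiers in the count table. 5 of the 6 passed the filter on low counts and were tested among 13167 genes, while *Klrg1* held 2 to 6 reads per library and was too low to measure. Killer lectin-like receptors are type II membrane proteins with a C-type lectin-like domain, carried by NK cells and by subsets of CD8 T cells. *Klrd1* encodes CD94, which pairs with NKG2A (*Klrc1*, inhibitory) or NKG2C (*Klrc2*, activating) to read the non-classical class I molecule Qa-1. *Klrk1* encodes NKG2D, an activating receptor for stress-induced ligands that signals through the adaptor DAP10 (*Hcst*) and, for one mouse isoform, DAP12 (*Tyrobp*). *Klre1* belongs to a small rodent branch of the family, and *Klrg1* encodes a cadherin receptor used as a marker of short-lived effector cells.

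The cells, labelled OT-I/Cas9 CD8 T cells, came from mice with both the OT-I transgene, a T cell receptor for an ovalbumin peptide, and a constitutive Cas9, so every group, controls included, had Cas9, a guide RNA, puromycin selection and culture in IL-2, IL-7 and IL-15. Each of 6 groups had 2 libraries: a control guide (WT) with vehicle (H2O), the same control guide with AGN192403 at 100 µM, and a guide against *Tmed10* (KO) without the compound, each either resting or activated for 24 h on anti-CD3 antibody. By the paper's methods, the CD8 T cells had already been activated once, on anti-CD3 and anti-CD28 antibodies, before transduction. Activation here therefore means a restimulation with anti-CD3, and the resting cells had been activated earlier too. TMED10 is a cargo receptor of the early secretory pathway, and AGN192403 is a small molecule described to bind and lower its relative TMED9. AGN192403 was given to control-guide cells only, so both perturbations were compared with the same vehicle libraries, and no KO library had the compound. The labels do not say whether the 2 libraries of a group came from separate mice or cultures, so p-values measure the spread between these libraries, which may be technical.

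The libraries held 9089350 to 16481840 counts each. The targeted gene was lower where the labels place its guide: *Tmed10* lay at 55.9 to 65.1 counts per 1000000 counts of the library (CPM, scaled by TMM) in the 4 KO libraries and at 116 to 144 CPM in the other 8. The label CD8 T was checked against 10 markers, all of which were measured, and their summed level was 3962 to 5529 CPM. Markers of NK, B and myeloid cells were low. The 9 NK markers summed to 11.99 to 14.6 CPM in the 6 resting libraries and 3.03 to 3.77 CPM in the 6 activated libraries, with *Fcer1g* the highest of them in each group, while the defining NK gene *Ncr1* held 0 to 2 reads in any library. B cell markers summed to at most 8.08 CPM and myeloid markers to at most 20.3 CPM. Markers of other T cells were not low. The 5 gamma-delta and innate-like T markers summed to 312 to 398 CPM at rest and 76.1 to 93.6 CPM after activation, nearly all from the constant region genes *Trdc*, *Tcrg-C1* and *Tcrg-C2*, while *Zbtb16* held no read. The 5 CD4 markers summed to 41.8 to 75.3 CPM, mostly from *Zbtb7b*, and *Cd4* itself held 4 to 17 reads per library.

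All 6 genes lie on chromosome 6 of GRCm38. *Klre1* (129577905 to 129585827) and *Klrd1* (129591782 to 129598775) are on the plus strand, and *Klrk1* (129610323 to 129623864), *Klrc2* (129647496 to 129660689) and *Klrc1* (129666015 to 129678973) follow on the minus strand, with *Klrc3* (129639064 to 129643337) between *Klrk1* and *Klrc2*. These 5 members span 101 kb, and *Klrg1* (122270596 to 122282882, minus strand) is 7.30 Mb away. No annotated gene shared exon bases with a member on either strand.

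Of the 6 members, 4 had a start-site window (250 bases before to 50 after the start) in the RefSeq promoter table for GRCm38.p6, namely *Klrk1*, *Klrc1*, *Klrc2* and *Klre1*. The first pair of windows is that of *Klrk1* and *Klrc1*, with the letters TGTGGT of the Runx motif, on one strand or the other, in capitals. *Klrc2* and *Klre1* hold these letters too. A link between them and the level of a gene in any group was not tested.

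Klrk1 (chr6:129623815-129624114, minus strand): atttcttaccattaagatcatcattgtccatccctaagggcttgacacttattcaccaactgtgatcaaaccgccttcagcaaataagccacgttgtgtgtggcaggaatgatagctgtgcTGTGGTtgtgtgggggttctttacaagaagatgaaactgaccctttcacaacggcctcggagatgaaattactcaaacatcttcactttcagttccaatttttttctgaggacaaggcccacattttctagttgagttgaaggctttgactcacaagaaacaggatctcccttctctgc
Klrc1 (chr6:129678924-129679223, minus strand): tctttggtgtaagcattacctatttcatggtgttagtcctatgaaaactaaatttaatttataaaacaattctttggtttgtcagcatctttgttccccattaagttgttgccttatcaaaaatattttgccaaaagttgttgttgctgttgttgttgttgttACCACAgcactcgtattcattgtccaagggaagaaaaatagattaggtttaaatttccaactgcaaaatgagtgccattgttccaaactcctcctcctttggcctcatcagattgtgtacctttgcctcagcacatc

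The second pair of windows is that of *Klrc2* and its neighbour *Klrc3*, whose starts are almost the same. Their changes on activation are given below, and a difference between them was not tested. Capitals mark the bases in which one differs from the other.

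Klrc2 (chr6:129660507-129660806, minus strand): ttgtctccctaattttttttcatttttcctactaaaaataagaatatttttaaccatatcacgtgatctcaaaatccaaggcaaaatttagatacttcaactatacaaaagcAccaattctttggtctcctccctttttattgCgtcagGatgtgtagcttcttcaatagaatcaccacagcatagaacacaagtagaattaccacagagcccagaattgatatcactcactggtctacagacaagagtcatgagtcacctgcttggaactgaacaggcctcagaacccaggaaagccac
Klrc3 (chr6:129643239-129643538, minus strand): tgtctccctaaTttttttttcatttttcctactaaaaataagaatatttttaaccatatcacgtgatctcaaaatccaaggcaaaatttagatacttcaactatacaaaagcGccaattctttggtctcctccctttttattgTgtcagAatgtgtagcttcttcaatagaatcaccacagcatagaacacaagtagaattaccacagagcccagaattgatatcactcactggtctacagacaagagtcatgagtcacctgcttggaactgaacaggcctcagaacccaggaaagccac

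The *Klrc2* and *Klrc3* windows were identical at 296 of 299 aligned bases (99.0%), with 3 substitutions and 1 base present in *Klrc3* alone. Each of the 4 members with a window held the Runx letters on one strand or the other at least once. Counted by window, they were in 5 of the 6 windows of these members and in 9 of the 29 windows of all *Klr* genes. They were in 16.8% of all 32851 windows in the table. The match began at position -129 from the start in *Klrk1*, at -87 in *Klrc1* and at -229 in *Klre1*. In the *Klrc2* and *Klrc3* windows shown it began at -76 and -49, and in a second, overlapping *Klrc2* window at -36 and -9. The AP-1 letters TGANTCA were found in the windows of 2 of these 4 members, *Klrk1* and *Klrc2*, and in 7.81% of all windows. The TCF letters CTTTGA were found in *Klrk1*, where they overlap the AP-1 match, and in 5257 of all windows. The T-box letters TCACACC were in no window of a member, and in 3.98% of all windows. The Ets letters CAGGAAG were likewise in no window of a member, and in 13.3% of all windows. The GATA letters AGATAA were in no window of a member either, and in 11.2% of all windows. Both strands were searched for each motif, the shares of all windows are by window and not by gene, and a match says nothing of binding.

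The *Klrc* genes are similar in their transcripts as well. Of the 65-base words, the length of a read, that occur in the protein-coding transcripts of *Klrc1*, 614 of 2045 also occurred in another gene, against 23.9% of the words of *Klrc2*, 29.8% for *Klrc3*, and 0.0% for *Klrd1*, *Klrk1*, *Klre1* and *Klrg1*. *Klrc1* shared 598 words with *Klrc2* and 16 with *Klrc3*, and *Klrc2* and *Klrc3* shared 203. The division of reads among the 3 *Klrc* genes is therefore uncertain, and each result for *Klrc1* or *Klrc2* was also computed on their sum.

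**Figure D1:**
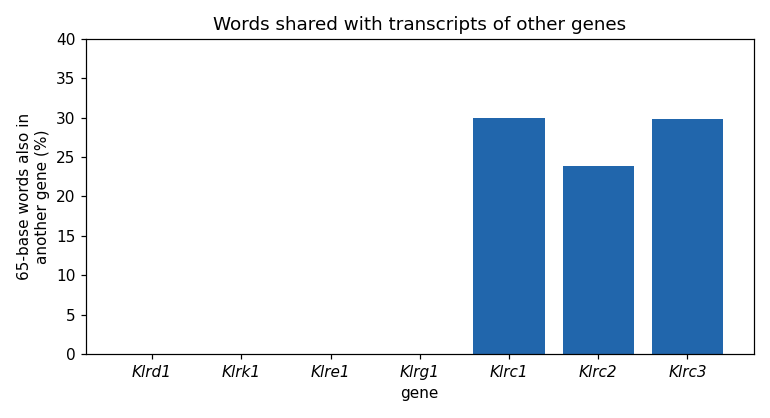
Share of distinct 65-base words of each gene's transcripts that also occur in a transcript of another gene (vertical axis, percent; GENCODE M21). The 3 *Klrc* genes in blue share at least 23.9% of their words, and the 4 genes in grey share 0.0%.

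Per kilobase of exon, *Klrd1* was the highest member in every group and the other tested members lay far below it. This order rests on the lengths used, the union of all annotated exons, 1281 bases for *Klrd1* and 7183 for *Klrk1*. In CPM not divided by length, *Klrk1* was above *Klrd1* in activated WT (means of 74.4 and 61.3) and activated AGN192403 cells (82.8 and 80.5). It was below *Klrd1* in activated KO (74.9 and 81.6) and in each resting group. *Klrd1* had group means of 47.8 to 211 CPM per kb, *Klrk1* of 10.4 to 16.6, *Klrc1* of 1.77 to 3.37, *Klrc2* of 0.562 to 0.996 and *Klre1* of 0.207 to 0.488 CPM per kb. *Klrg1* had 0.125 to 0.373 CPM per kb, and in resting KO cells its level (0.181 CPM per kb from 6 reads) and that of *Klre1* (0.207 CPM per kb from 18 reads) could not be placed in order at this depth.

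*Klrg1* held 43 reads in all 12 libraries together. The 2 libraries of each group gave a pooled level of 0.514 CPM in resting WT cells (exact Poisson 95% interval 0.266 to 0.899), 0.174 CPM in resting AGN192403 cells (0.0474 to 0.446) and 0.239 CPM in resting KO cells (0.0875 to 0.519). In activated cells it was 0.287 CPM in WT (0.115 to 0.592), 0.293 CPM with AGN192403 (0.118 to 0.603) and 0.269 CPM in KO (0.108 to 0.555). These intervals overlap throughout and cover counting error only, so a difference in the transcript of this effector marker was not detectable.

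**Figure D2:**
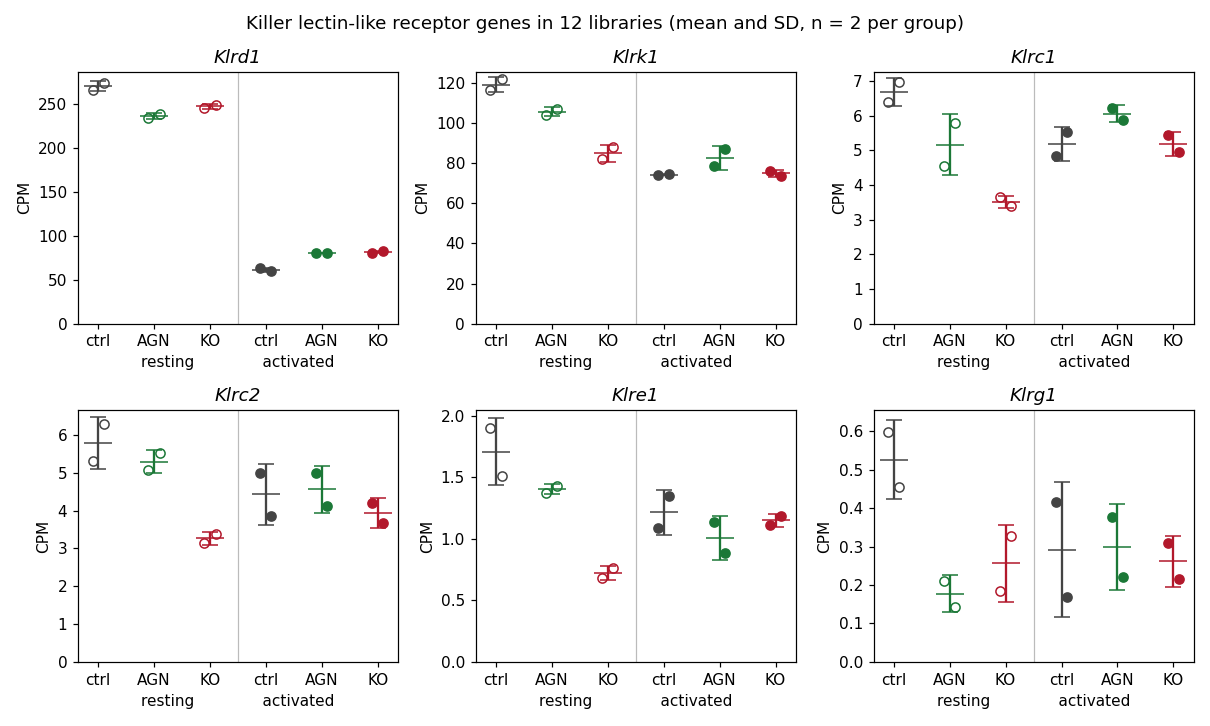
Level of each of the 6 genes in CPM (vertical axis, linear from 0) in the 12 libraries, by group: control guide with vehicle (ctrl, grey), control guide with AGN192403 (AGN, green) and *Tmed10* guide (KO, red), resting with open and activated with filled points; the long dash is the mean and the bar the SD (n = 2). *Klrd1* falls from 234 to 274 CPM at rest to 59.5 to 82.8 CPM after activation, and *Klrk1*, *Klrc1*, *Klrc2* and *Klre1* are lowest among the resting groups in KO.

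Among the 6 members, activation with anti-CD3 lowered *Klrd1* most. In WT cells *Klrd1* was at 266 and 274 CPM at rest and at 63.1 and 59.5 CPM after activation, and fell by 2.14 on the log2 scale (SE 0.0469, adjusted p = 1.23e-22, edgeR). *Klrk1* was at 116 and 122 CPM at rest and at 74.1 and 74.7 CPM after activation, and fell by 0.68 (SE 0.0542, adjusted p = 2.37e-11). The resting and activated libraries of neither gene overlapped, which describes 2 libraries against 2 and adds nothing to the calls.

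The *Klrc* genes and *Klre1* moved less. *Klrc1*, the inhibitory partner of CD94, went from 6.39 and 6.96 CPM to 4.83 and 5.54 CPM and fell by 0.37 (SE 0.166, adjusted p = 0.0476), which was called under 4 of 20 alternative settings. The sum of the 3 *Klrc* genes fell by 0.71 (adjusted p = 8.07e-06). In it *Klrc3*, which is no member, went from 89 to 9 reads, *Klrc1* from 156 to 124 and *Klrc2* from 136 to 106. *Klrc2* went from 5.30 and 6.28 CPM to 4.999 and 3.86 CPM (log2 fold change -0.40, SE 0.185, adjusted p = 0.0559). *Klre1* went from 1.90 and 1.51 CPM to 1.08 and 1.34 CPM (-0.47, SE 0.343, adjusted p = 0.221). In all, 3 of the 5 tested members were lower and none was higher, where 73.8% of all genes tested were called in either direction and 37.4% were called lower, so a share of this size is not a result about the members. Marker sums of other cells fell over the same comparison in WT, that of the gamma-delta and innate-like T markers from a mean of 314.8 to 79.6 CPM (3 of 3 tested genes lower, median log2 fold change -1.89), that of NK markers from 12.6 to 3.30 CPM, of B markers from 6.603 to 1.63 CPM and of myeloid markers from 19.3 to 4.35 CPM. Their part in these values was not tested. In bulk libraries fewer cells with a transcript and less transcript per cell cannot be told apart.

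With AGN192403 present, *Klrd1* was at 234 and 239 CPM at rest and at 80.4 and 80.6 CPM after activation, and fell by 1.55 (SE 0.0455, adjusted p = 4.94e-20). *Klrk1* was at 104 and 107 CPM at rest and at 78.5 and 87.0 CPM after activation, and fell by 0.35 (SE 0.0541, adjusted p = 3.37e-06). Both were separated between states in every library, again a description of 2 libraries against 2. *Klrc1* (log2 fold change 0.19, adjusted p = 0.332), *Klrc2* (-0.24, adjusted p = 0.261) and *Klre1* (-0.50, adjusted p = 0.236) were not called. The sum of the *Klrc* genes was lower (-0.30, adjusted p = 0.0279). In it *Klrc3*, which is no member, went from 74 to 14 reads, *Klrc1* from 124 to 146 and *Klrc2* from 125 to 109. Thus 2 of 5 members were lower, beside 70.0% of all genes called and 36.1% called lower.

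In *Tmed10* KO cells *Klrd1* was at 245 and 249 CPM at rest and at 80.5 and 82.8 CPM after activation, and fell by 1.60 (SE 0.0450, adjusted p = 1.75e-20). *Klrk1* was at 82.0 and 87.9 CPM at rest and at 76.0 and 73.8 CPM after activation, and fell by 0.17 (SE 0.0560, adjusted p = 0.00903), which was not called without the filter on low counts (adjusted p = 0.241). *Klrc1* moved the other way, from 3.64 and 3.38 CPM to 5.44 and 4.95 CPM, and rose by 0.57 (SE 0.185, adjusted p = 0.00834), a call lost with DESeq2 (adjusted p = 0.117) and without activated KO replicate 1 (adjusted p = 0.121). The sum of the 3 *Klrc* genes did not follow it (0.04, adjusted p = 0.797), since *Klrc3* fell in the same cells. *Klrc2* (0.30, adjusted p = 0.195) and *Klre1* (0.67, adjusted p = 0.139) were not called. Thus 2 members were lower and 1 was higher, beside 73.7% of all genes called, 36.5% lower and 37.2% higher.

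The balance between CD94 and its partners changed with the state of the cells. Within a library, *Klrd1* per kilobase was 21.6 to 33.3 times the summed level of *Klrc1*, *Klrc2* and *Klrc3* per kilobase at rest, and 11.2 to 16.8 times that sum after activation. The ratio was highest in the 2 resting KO libraries, at 31.99 and 33.3. The ratio of *Klrd1* to *Klrk1* per kilobase was 12.5 to 16.8 at rest and 4.47 to 6.29 after activation. These ratios do not depend on how libraries were scaled, and the resting and activated libraries did not overlap in either. Their size does depend on the exon lengths used, so they are no measure of which transcript was more abundant.

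**Figure D3:**
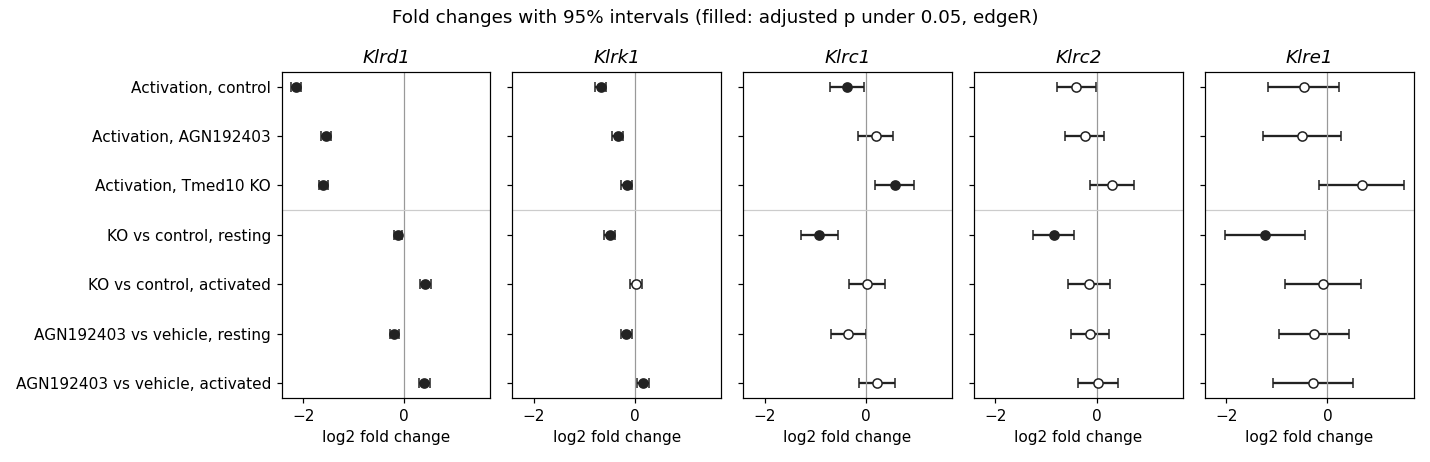
Log2 fold change (horizontal axis) with its 95% interval for the 5 tested members in 7 comparisons, 3 of activation above the line and 4 of KO or AGN192403 below it; filled points had an adjusted p under 0.05 (edgeR). *Klrd1* lies at -2.14 to -1.55 after activation, and all 5 genes have filled points below 0 in resting KO against control.

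In resting cells all 5 tested members were lower with the *Tmed10* guide than with the control guide. Among all genes tested, 7.44% were called in either direction and 4.63% were called lower, and 2 of the 5 calls were marginal. *Klrk1* was at 116 and 122 CPM in WT and at 82.0 and 87.9 CPM in KO, lower in both KO libraries (log2 fold change -0.50, SE 0.0531, adjusted p = 7.28e-07), and was called under each of 19 alternatives. *Klrc1* was at 6.39 and 6.96 CPM in WT and at 3.64 and 3.38 CPM in KO (-0.92, SE 0.179, adjusted p = 0.00158), from 156 and 90 reads. *Klrc2* was at 5.30 and 6.28 CPM in WT and at 3.15 and 3.38 CPM in KO (-0.85, SE 0.196, adjusted p = 0.00705), from 136 and 82 reads. The sum of the *Klrc* genes was lower too (-0.80, adjusted p = 7.92e-05). For each of these genes the WT and KO libraries were apart. With 2 libraries against 2 this only restates the values above, and the share of all genes so separated was not counted.

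The other two calls rested on little. *Klrd1* was at 266 and 274 CPM in WT and at 245 and 249 CPM in KO (-0.13, SE 0.0400, adjusted p = 0.0458), and it was called under 4 of 19 alternatives. *Klre1* was at 1.90 and 1.51 CPM in WT and at 0.679 and 0.764 CPM in KO (-1.23, SE 0.381, adjusted p = 0.0481), from 39 and 18 reads, and it was called under 5 of the 17 alternatives that gave it an adjusted p. Both calls were lost without any 1 of the 4 resting WT and KO libraries. DESeq2 called *Klrk1* alone of the 4 members for which it gave an adjusted p. Leaving out 1 library took the count of called members down to as low as 2, without resting control replicate 2 or resting KO replicate 1, when *Klrk1* and *Klrc1* were called. Beside these values, the NK marker sum was 11.99 to 13.2 CPM in resting WT and 12.5 to 14.6 CPM in resting KO. Most of it was *Fcer1g*, at means of 9.88 and 10.2 CPM. The other NK markers had means of at most 1.74 CPM and went both ways. *Ncr1*, *Klrb1c* and *Klra4* were lower in KO, and *Klrb1a*, *Klra7*, *Klra8*, *Tyrobp* and *Fcgr3* were higher. The part of NK cells in the receptor values was not tested. The 5 gamma-delta and innate-like T markers summed to 312 to 318 CPM in WT and to 398 CPM in both KO libraries. These markers did not move together. *Tcrg-C1* had means of 120.8 CPM in WT and 190.5 CPM in KO, *Tcrg-C2* of 50.0 and 66.7 CPM, and *Trdc* of 143.7 and 140.7 CPM. The part of these shifts in the receptor values was not tested.

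After activation the picture was different. *Klrd1* was at 63.1 and 59.5 CPM in WT and at 80.5 and 82.8 CPM in KO, higher by 0.41 (SE 0.0526, adjusted p = 2.76e-06), and it was the 1 member called, where 19.6% of all genes were called and 10.8% were called higher. *Klrk1* (0.01, 95% interval -0.10 to 0.13, adjusted p = 0.905), *Klrc1* (0.02, -0.34 to 0.38, adjusted p = 0.960), *Klrc2* (-0.15, -0.56 to 0.26, adjusted p = 0.678) and *Klre1* (-0.09, -0.84 to 0.67, adjusted p = 0.907) were not called. The gamma-delta and innate-like T markers summed to 76.1 to 83.1 CPM in activated WT and to 91.8 to 93.6 CPM in activated KO, and the CD4 markers to 41.8 to 46.2 CPM and to 53.5 to 59.8 CPM. Their part in the *Klrd1* value was not tested.

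The change of state itself was compared between KO and WT in an interaction contrast, which asks whether the response to anti-CD3 differed. The fall of *Klrd1* was smaller in KO than in WT by 0.54 on the log2 scale (SE 0.0661, adjusted p = 1.14e-05) and that of *Klrk1* by 0.51 (SE 0.0781, adjusted p = 0.000171). *Klrc1* responded more positively in KO by 0.94 (SE 0.249, adjusted p = 0.0259), a difference called also in the *Klrc* sum (0.75, adjusted p = 0.0111) and lost without resting control replicate 2, activated control replicate 1 or any 1 of the 4 KO libraries (adjusted p = 0.0506 to 0.188). *Klrc2* (0.70, adjusted p = 0.183) and *Klre1* (1.14, adjusted p = 0.280) were not called. The 3 members called, all higher, stand against 4.96% of all genes called and 3.07% called higher.

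With AGN192403, *Klrd1* and *Klrk1* were the members called in either state, lower at rest and higher after activation. At rest *Klrd1* was at 266 and 274 CPM with vehicle and at 234 and 239 CPM with the compound (-0.20, SE 0.0403, adjusted p = 0.000703). *Klrk1* was at 116 and 122 CPM with vehicle and at 104 and 107 CPM with the compound (-0.18, SE 0.0518, adjusted p = 0.0137), a call lost with DESeq2, without the filter on low counts, and without resting control replicate 2 or either resting AGN192403 library. *Klrc1* (-0.35, adjusted p = 0.139), *Klrc2* (-0.13, adjusted p = 0.649) and *Klre1* (-0.26, adjusted p = 0.643) were not called. The 2 members called lower stand against 25.4% of all genes called and 13.7% called lower. The gamma-delta and innate-like T marker sum was 312 to 318 CPM with vehicle and 338 to 340.0 CPM with the compound. Within it, *Tcrg-C1* (means of 120.8 and 143.7 CPM) and *Tcrg-C2* (50.0 and 55.6 CPM) were higher with the compound and *Trdc* was not (143.7 and 139.5 CPM). The part of these markers in the receptor values was not tested.

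In activated cells *Klrd1* was at 63.1 and 59.5 CPM with vehicle and at 80.4 and 80.6 CPM with AGN192403, higher by 0.39 (SE 0.0528, adjusted p = 1.57e-06). *Klrk1* was at 74.1 and 74.7 CPM with vehicle and at 78.5 and 87.0 CPM with the compound, higher by 0.16 (SE 0.0566, adjusted p = 0.0302), which DESeq2 did not call and which was not called without activated AGN192403 replicate 2 or either activated control library. The 2 members called higher stand against 34.7% of all genes called and 16.4% called higher. Over the same comparison the CD4 marker sum was 41.8 to 46.2 CPM with vehicle and 72.7 to 75.3 CPM with the compound, with *Zbtb7b* at means of 34.2 and 65.1 CPM, and its part in these values was not tested. The response to activation was less negative with the compound by 0.59 for *Klrd1* (SE 0.0664, adjusted p = 5.91e-07) and by 0.34 for *Klrk1* (SE 0.0768, adjusted p = 0.00256), and not called for *Klrc1* (0.57, adjusted p = 0.0998), *Klrc2* (0.16, adjusted p = 0.745) or *Klre1* (-0.03, adjusted p = 0.983). The 2 called higher stand against 19.7% of all genes called and 8.62% called higher. Because KO and AGN192403 were set against the same vehicle libraries, a likeness between the 2 sets of differences is in part built in.

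Set directly against each other, KO and AGN192403 cells differed at rest. *Klrk1* was lower in KO than with the compound (-0.32, SE 0.0539, adjusted p = 0.000100), as were *Klrc1* (-0.57, SE 0.188, adjusted p = 0.0379) and *Klrc2* (-0.72, SE 0.200, adjusted p = 0.0139), where 16.6% of all genes were called and 7.78% called lower. The *Klrc1* and *Klrc2* calls were lost without resting AGN192403 replicate 2 or without either resting KO library, and that of *Klrc1* also without activated control replicate 2 or either activated KO library. *Klrd1* (0.06, 95% interval -0.02 to 0.15, adjusted p = 0.321) and *Klre1* (-0.98, adjusted p = 0.0979) were not called. In activated cells 0 of the 5 members were called by edgeR, 1 had an unadjusted p under 0.05 (*Klrk1*, -0.15, adjusted p = 0.0686) and DESeq2 called 0, where edgeR called 20.3% of all genes. *Klrd1* differed there by 0.02 (95% interval -0.09 to 0.12), with 80.4 to 80.6 CPM with the compound and 80.5 to 82.8 CPM in KO.

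Beyond the 6 members, 24 more *Klr* genes were in the table, of which 6 were tested and 3 held no read in any library. *Klrc3*, which encodes NKG2E, fell much further on activation than *Klrc1* or *Klrc2*. In WT cells it went from 3.796 and 3.86 CPM at rest to 0.250 and 0.503 CPM after activation (-3.31, SE 0.369, adjusted p = 1.34e-08), and it fell also with AGN192403 (-2.42, adjusted p = 1.06e-06) and in KO (-2.58, adjusted p = 1.15e-06). The 95% interval of the *Klrc3* change in WT was -4.08 to -2.55 and that of *Klrc2* -0.78 to -0.02. The difference between these 2 genes was not tested in itself, nor was a link to their start windows, and reads from the words they share cannot be assigned. Per kilobase, *Klrc3* was 4.11 to 6.66 times *Klrc2* in the resting libraries and 0.395 to 1.16 times *Klrc2* in the activated ones. The size of this ratio follows from the exon lengths used, 736 bases for *Klrc3* and 5812 for *Klrc2*. In CPM not divided by length, *Klrc2* was above *Klrc3* in each resting group, at means of 5.79 and 3.83 in WT.

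Several Ly49 and related genes rose on activation from almost nothing, against the direction of *Klrd1* and *Klrk1*. *Klra17* went from 0.200 and 0.227 CPM to 4.75 and 2.77 CPM in WT (4.06, adjusted p = 4.40e-08), and *Klrg2* from 2 and 0 reads to 47 and 37 reads (5.19, adjusted p = 8.78e-08). *Klra6* rose as well (2.21, adjusted p = 0.00648). *Klri2* held 0 reads in both resting WT libraries and 19 and 10 reads after activation, a level at least 9.42-fold higher than the floor of 3 reads over the group. In activated KO cells *Klri2* was at 2.35 and 3.77 CPM, against 1.58 and 0.839 CPM in activated WT (1.26, SE 0.349, adjusted p = 0.0119). The rise of *Klra17*, *Klrg2*, *Klra6* and *Klri2* was called in each of WT, AGN192403 and KO cells. However, these genes held only 6 to 15 reads over the resting libraries and passed the filter on low counts through the activated ones. That filter favours a call as higher for such genes, so their shared direction is a description and not a result about the family.

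*Klra5*, which encodes Ly49E, was the only Ly49 gene present at rest in quantity, at 32.4 to 38.4 CPM. It fell on activation by 0.67 in WT (adjusted p = 3.82e-08), by 0.54 with AGN192403 (adjusted p = 6.42e-07) and by 0.36 in KO (adjusted p = 0.000172). Among genes below the filter, *Klrb1f* held 39 reads at rest and 1 after activation, and *Klrb1c*, which encodes NK1.1, 27 and 1. *Klra1*, *Klra2*, *Klra4* and *Klra7* held 29 to 49 reads over all libraries.

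**Figure D4:**
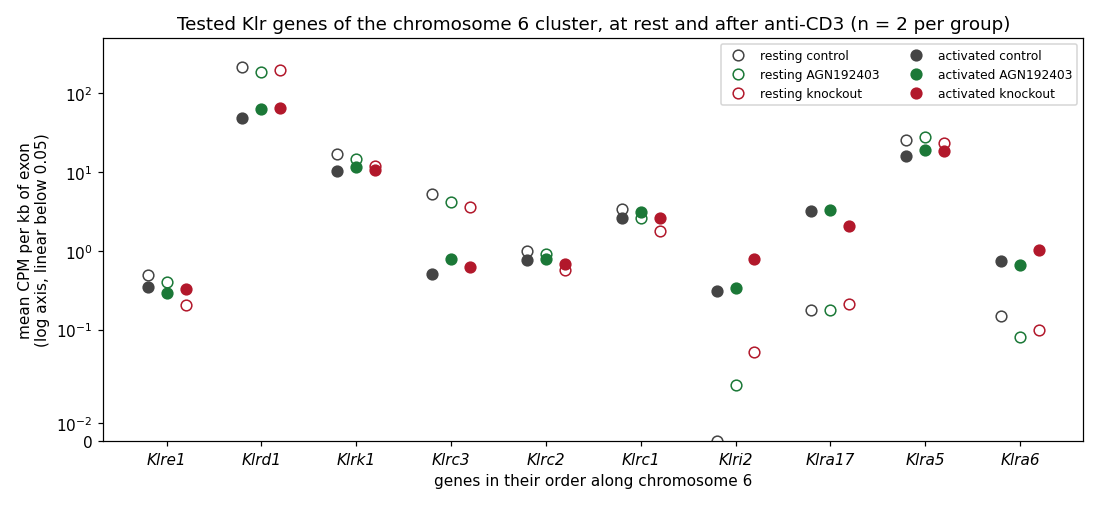
Mean level in CPM per kb of exon (vertical axis, log scale, linear below 0.05) of the 10 tested *Klr* genes of the chromosome 6 cluster in their order along the chromosome, resting (open) and activated (filled), with control in grey, AGN192403 in green and KO in red (n = 2 per group). *Klrd1*, *Klrk1*, *Klrc3* and *Klra5* lie lower after activation in each background, while *Klri2*, *Klra17* and *Klra6* lie higher.

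The stretch from the outermost clustered members to 500 kb on each side held 53 annotated genes, of which 16 were tested and 10 of these were *Klr* genes. *Cd69*, an early activation antigen in this stretch, was lower in resting KO (-0.40, adjusted p = 1.48e-05) and its response to anti-CD3 was more positive in KO than in WT by 0.82 (adjusted p = 2.37e-07). It changed by -0.65 in WT on activation (adjusted p = 5.84e-11) and by 0.17 in KO (adjusted p = 0.00603). *Clec2d* (-0.32, adjusted p = 0.000110) and the myeloid lectin gene *Clec12a* (-2.20, adjusted p = 0.000215) fell on activation in WT, as did *2310001H17Rik* (-0.44, adjusted p = 0.00199). *Olr1*, a scavenger receptor gene (10.16, adjusted p = 6.26e-15), and *Gabarapl1*, an autophagy gene (0.38, adjusted p = 5.88e-06), rose, so neighbours of the receptors moved in both directions.

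A list of 14 adaptor and signalling genes, all tested, held general lymphocyte genes such as *Lck* and *Sh2d1a* beside adaptors of these receptors. On activation in WT, 9 were lower and 2 higher, where 37.4% of all genes were called lower and 36.4% higher. The median log2 fold change was -0.78, against -0.02 over all genes tested. With AGN192403 11 were lower and 2 higher, beside 36.1% and 33.9% of all genes, and in KO 10 were lower and 2 higher, beside 36.5% and 37.2%. *Hcst*, which encodes DAP10, the adaptor of NKG2D, fell by 1.71 in WT (adjusted p = 1.94e-12), by 1.29 with AGN192403 (adjusted p = 2.82e-10) and by 1.47 in KO (adjusted p = 5.55e-12). *Syk*, a kinase downstream of DAP12, fell by 2.22 in WT (adjusted p = 0.000178), but from a mean of only 2.055 to 0.418 CPM, with as few as 4 reads in a library. *Pik3r1*, the regulatory subunit of PI3-kinase, fell by 1.41 in WT and *Inpp5d*, the phosphatase SHIP1, by 1.32. *Tyrobp*, which encodes DAP12, held 63 reads in all libraries.

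These adaptors were also compared between KO and WT. In resting cells edgeR called 0 of 14, 3 had an unadjusted p under 0.05 and DESeq2 called 0, where edgeR called 7.44% of all genes tested. In activated cells *Sh2d1a*, which encodes the adaptor SAP, was the 1 gene called (-0.50, adjusted p = 6.39e-05), where 8.78% of all genes were called lower. Counts of this size are not a result about the adaptors. With AGN192403, 5 of 14 were lower at rest, beside 13.7% of all genes, among them *Sh2d2a* (-0.35, adjusted p = 5.71e-07), *Pik3r1* (-0.26) and *Zap70* (-0.21), and 4 were lower after activation, beside 18.3% of all genes, led by *Sh2d1a* (-0.93, adjusted p = 4.55e-09).

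Of 13 ligand genes, 9 had an identifier and 3 were tested. *H2-T23*, which encodes the Qa-1 heavy chain read by CD94/NKG2, rose on activation by 0.54 in WT (adjusted p = 4.43e-11) from a mean of 166 to 241 CPM. *Ulbp1*, which encodes the NKG2D ligand MULT-1, fell by 0.52 (adjusted p = 3.35e-09) from 104 to 72.7 CPM. *Cdh1*, the E-cadherin ligand of KLRG1, fell by 5.20 (adjusted p = 3.62e-22) from 61.9 to 1.67 CPM, and was higher in KO than WT both at rest (0.45, adjusted p = 6.58e-06) and after activation (1.42, adjusted p = 3.46e-05). *H60c*, *Cdh2* and *Cdh4* held no read, and *Raet1d*, *Raet1e* and *H60b* held 16 to 35 reads each over all libraries.

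Transcription factors and cytokine receptor chains that shape this receptor set were all measured. Of 14, 4 were higher and 8 lower on activation in WT, with *Zeb2* higher by 4.91 (adjusted p = 2.84e-22) and *Id3* (-4.29), *Tcf7* (-2.81) and *Gata3* (-1.25) lower, where 36.4% of all genes were called higher and 37.4% lower. In resting KO cells *Id2*, an inhibitor of E proteins, was lower (-0.30, adjusted p = 7.12e-06), as was *Prdm1*, which encodes BLIMP-1 (-0.24, adjusted p = 0.0480), and none was higher, beside 4.63% of all genes lower and 2.81% higher. In activated KO cells *Tcf7* (0.71, adjusted p = 8.78e-08) and *Eomes* (0.33, adjusted p = 7.32e-05) were higher and *Runx3* lower (-0.30, adjusted p = 0.000287), beside 10.8% of all genes higher and 8.78% lower. With AGN192403, 11 of 14 were lower at rest, beside 13.7% of all genes, led by *Prdm1* (-0.71, adjusted p = 1.96e-07). In activated cells 5 of 14 were higher with the compound, among them *Tcf7* (0.49), *Eomes* (0.46, adjusted p = 1.95e-07) and *Gata3* (0.40), and 4 were lower, led by *Nfil3* (-0.41, adjusted p = 3.28e-07), beside 16.4% of all genes higher and 18.3% lower.

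Of 11 markers of effector and memory subsets, 9 were tested. On activation in WT, 6 were lower and 1 higher, with *Cxcr3* (-4.94), *Itga1* (-4.53), *Klf2* (-4.18) and *Itgae* (-3.84) lower, where 37.4% of all genes were called lower and 36.4% higher. In resting KO cells 2 were lower, among them the interleukin-7 receptor gene *Il7r* (-0.66, adjusted p = 1.83e-10), and 3 were higher, among them *Klf2* (0.62) and *S1pr1* (0.53), beside 4.63% of all genes lower and 2.81% higher. *Cx3cr1* and *S1pr5*, which mark terminal effector cells together with KLRG1, held 27 and 2 reads over all libraries.

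The genes whose profile was most like that of each member were ranked over 12 libraries by Pearson's r of log2 CPM among 10881 other protein-coding genes, as a description in which the points share libraries and the activation state. For *Klrd1* these were *Ifi209* (r = 0.999), *Tap1* (0.998) and *Slfn1* (0.998), of which *Ifi209* encodes an interferon-inducible protein and *Tap1* a peptide transporter of antigen presentation. For *Klrk1* they were *Egr1* (0.952), *Fndc3a* (0.947) and *Castor2* (0.924), for *Klrc1* *Col4a3bp* (0.881), *Rprd1a* (0.864) and *Tmem189* (0.843), for *Klrc2* *Stac3* (0.818), *Snapc3* (0.795) and *D130040H23Rik* (0.789), and for *Klre1* *Zrsr2* (0.837), *2010111I01Rik* (0.829) and *Il7r* (0.808).

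With the mean of each activation state subtracted, *Ifi209* still ranked first for *Klrd1* (r = 0.972), followed by *Armc2* (0.960) and *Mbnl2* (0.952). *Klrk1* and *Klrc1* then ranked among each other's 3 nearest genes (r = 0.919), *Klrk1* beside *Ctsd* (0.942) and *Egr1* (0.891), and *Klrc1* beside *Casp4* (0.927) and *Styk1* (0.927). *Klrc2* was nearest *Dmxl2* (0.924), *Stac2* (0.897) and *Ubtd1* (0.895), and *Klre1* nearest *Crk* (0.924), *Sh3rf1* (0.914) and *2010111I01Rik* (0.914). Among the members themselves, *Klrk1*, *Klrc1*, *Klrc2* and *Klre1* had r of 0.740 to 0.919 with one another on this scale and of at most 0.338 with *Klrd1*. These r come from the same libraries as the lower levels in resting KO, and *Klrc1* and *Klrc2* share words. They are therefore a description and no separate evidence.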

How the data were processed

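Poly-A RNA libraries were sequenced in single reads of 65 bases. Per the labels, the authors' alignment used STAR 2.6.0c on the GRCm38 (mm10) build, HTSeq gave reads per Ensembl gene, and they deposited whole-number counts that were not normalized; strand and multi-mapping settings are not given in the sources used here. Symbols, exon lengths and coordinates came from GENCODE M21, promoters from RefSeq.

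Genes were filtered with filterByExpr, scaled by TMM (factors 0.976 to 1.02) and fitted with edgeR 4.0.16 (quasi-likelihood, 1 mean per group, all 12 libraries, 6 residual df) in R 4.3.3, and p-values were adjusted by Benjamini-Hochberg over 13167 genes, called at 0.05. The 13167 genes hold 99.9% of counts. Depth was 9089350 to 16481840 counts per library; 3 counts set the floor, and intervals cover counting error only. No 2 libraries of a group agreed within sampling noise. The code was tested on simulated data. Alternatives were DESeq2 1.42.0, other scalings and filters, a replicate block, the compared libraries alone, each library left out, and the *Klrc* genes summed. Identifiers without a symbol hold 0.0709% of counts.

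The members were named at the outset, and they and the lists were chosen with earlier results of these data known. Named besides them were *Klr* genes that were tested or held over 20 counts, up to 4 called genes per list and comparison, the 3 most similar protein-coding genes with a mean of at least 1 CPM (log2 CPM, prior count 2), and called genes within 500 kb of the cluster; of these, those that describe a member's setting are given.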

Additional observations from a re-analysis of the deposited data

Results flagged for a closer look

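The response to anti-CD3 differed between backgrounds for 3 members, by the interaction term of the edgeR fit. For *Klrd1* it was less negative in KO than in WT by 0.54 and with AGN192403 than with vehicle by 0.59 on the log2 scale. For *Klrk1* the same differences were 0.51 and 0.34, and for *Klrc1* the difference between KO and WT was 0.94. KO differed from WT in *Klrk1* and *Klrc1* at rest and not detectably after activation, whereas *Klrd1* was higher in KO after activation, and its difference at rest, of the opposite sign, was called under 4 of 19 alternatives. Both differences use the same vehicle libraries. Groups of 2 libraries are too small for a test of outlying samples.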

How the results depend on the processing

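The depth and number of libraries limited several genes: small differences were not detectable in *Klrc1*, *Klrc2* and *Klre1*, with 7 to 92 reads per library, and *Klrg1*, with 2 to 6, could not be tested. Of 209 counts of called members under alternatives, 175 stayed within 1.5 times the reported count, 26 were lower and 8 higher. For resting KO against WT the count of 5 became 3 with median-ratio size factors and 1 with DESeq2. It became 1 with DESeq2 and 1 without the filter on low counts for AGN192403 at rest and again in activated cells, and 1 with DESeq2 for KO against AGN192403 at rest, where *Klrc1*, *Klrc2* and *Klre1* had no adjusted p. For KO against AGN192403 after activation it rose from 0 to 1 (*Klrk1*) with the filter of 5 CPM and 1 with library totals without TMM. The causes were not tested, other than that DESeq2 and the filter of 5 CPM gave some members no adjusted p, and leaving out a library leaves its group with 1 library, assumed to vary like the rest, and more genes tested.

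Leaving out each library in turn gave ranges of 2 to 3 called members for activation in WT, 2 to 2 with AGN192403 and 2 to 3 in KO. The ranges were 2 to 5 for KO against WT at rest, 1 to 1 after activation, 1 to 2 for AGN192403 at rest, 1 to 2 after activation, 2 to 3 and 2 to 2 for the interactions of KO and AGN192403, and 1 to 3 and 0 to 1 for KO against AGN192403 at rest and after activation.

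Of 1030 single-gene values, 919 kept direction and side of the threshold, 76 lost the call, 11 gained it and 24 changed sign, each from a value that was not called. With the *Klrc* genes summed, *Klrc1* changed sign on activation with AGN192403 (-0.30) and in activated KO against WT (-0.045). With the filter of 5 CPM, *Klrk1* in activated KO against WT turned to -0.0057, and *Klrd1* in activated KO against AGN192403 turned to -0.031 with library totals and to -0.011 with the compared libraries alone. Leaving out 1 library spread the values around 0 for activated KO against WT in *Klrk1* (-0.015 to 0.026), *Klrc1* (-0.074 to 0.11), *Klrc2* (-0.33 to 0.052) and *Klre1* (-0.23 to 0.066), for AGN192403 in *Klrc2* at rest (-0.24 to 0.0096) and after activation (-0.13 to 0.22), for its interaction in *Klre1* (-0.19 to 0.16), and for activated KO against AGN192403 in *Klrd1* (-0.028 to 0.021).

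The replicate numbers are shared between groups, but the labels do not tie them to a mouse or day, and the differences between replicates of 2 groups correlated at -0.00268 to 0.19. With the replicate block, 2, 2 and 3 members were called for activation in WT, AGN192403 and KO cells, 5 and 1 for KO against WT at rest and after activation, 2 and 2 for AGN192403, 3 and 2 for the interactions, and 3 and 0 for KO against AGN192403.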
